A study of Homo sapiens with 3 samples.

Results

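The genes described here are 10 genes of microRNA processing and silencing, namely DROSHA, DGCR8, XPO5, DICER1, AGO1, AGO2, AGO3, AGO4, TNRC6A and TNRC6B. The rule takes rows by gene symbol, and each matched 1 row among the 58039 genes listed. All 10 reached a mean of at least 1 FPKM (fragments per kilobase of transcript, scaled to the mapped fragments of the library) and were among the 13112 genes tested. The cells are T47D, an established line of estrogen receptor-positive luminal breast cancer. A single control library was compared with 2 libraries of the genotype ERINA knockdown, one made with shRNA1 and one with shRNA2, 2 different hairpins against the long noncoding RNA ERINA. Stable cells had been made by lentiviral delivery and puromycin selection, per the labels. The description of the control reads shCtrl while its shRNA entry reads None, so whether the control cells also carried a hairpin is not settled by the labels. No condition was repeated, and the knockdown group therefore holds 1 library of each hairpin, with no label that names separate cultures. Each p given here thus rests on the difference between 2 libraries, which may be technical or come from the hairpin. The test also draws on that spread over all genes in a fit, so no p reflects a gene's own spread alone.

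MicroRNAs are cut from hairpins in 2 steps. In the nucleus the Microprocessor, made of the nuclease DROSHA and its RNA-binding partner DGCR8, releases the hairpin precursor from the primary transcript. Exportin-5, the product of XPO5, carries the precursor to the cytoplasm, where DICER1 trims it to a short duplex. An Argonaute protein keeps 1 strand and pairs it with target messages, and the TNRC6 (GW182) proteins bind Argonaute and recruit the machinery that shortens poly(A) tails and blocks translation. Short hairpin RNAs expressed from a vector enter the same route, usually at the export and DICER1 steps.

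ERINA, listed as LINC00992, stood at 63.4 FPKM in the control, 5.21 under shRNA1 and 8.91 under shRNA2. The luminal markers ESR1, PGR, GATA3, FOXA1, KRT8, KRT18, KRT19 and EPCAM were all present in each library, at 16.5 to 5210 FPKM. The immune marker CD3E was at 0 throughout, and the summed level of 3 endothelial markers was between 0.0208 and 0.0437 FPKM. The 4 fibroblast markers summed to 5.32 FPKM in the control and to 2.94 and 2.79 with shRNA1 and shRNA2, a sum in which COL1A1 went from 5.16 to 1.65 and 2.10 while DCN went from 0.0227 to 1.25 and 0.662. The 4 basal markers summed to 11.9, 10.8 and 13.0 FPKM in the same order, most of it ACTA2. The part of these markers in the changes given below was not tested. The estimated depth was 30700000 fragments in the control, 31600000 under shRNA1 and 32000000 under shRNA2.

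In the control, AGO2 and XPO5 were the most abundant of the 10 messages and AGO4 the least, a range of 6.93-fold. FPKM values are scaled to transcript length, so levels of different genes can be set side by side. The control order ran from AGO2 (18.8 FPKM) and XPO5 (18.7) through DICER1 (13.8), DROSHA (8.60), AGO3 (6.52), TNRC6B (5.82), TNRC6A (5.66), AGO1 (4.40) and DGCR8 (3.94) to AGO4 (2.72). The median of tested protein-coding genes in that library was 13.6 FPKM, with 60.0% of them below AGO2 and 12.2% below AGO4. Each FPKM came with an interval deposited by the authors, and in the control these intervals overlapped for every one of the 45 pairs of genes, so no order within that library was resolved by them. With shRNA1 the interval of AGO4 lay below those of XPO5, DICER1, DROSHA and TNRC6A, which made 4 separated pairs. With shRNA2 it lay below those of XPO5 and DROSHA only, which made 2. Every neighbour in the order overlapped the next in all 3 libraries. In the plot of levels by gene and library, the widest bars are those of AGO2 in each library and of DICER1 under shRNA2.

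**Figure D1:**
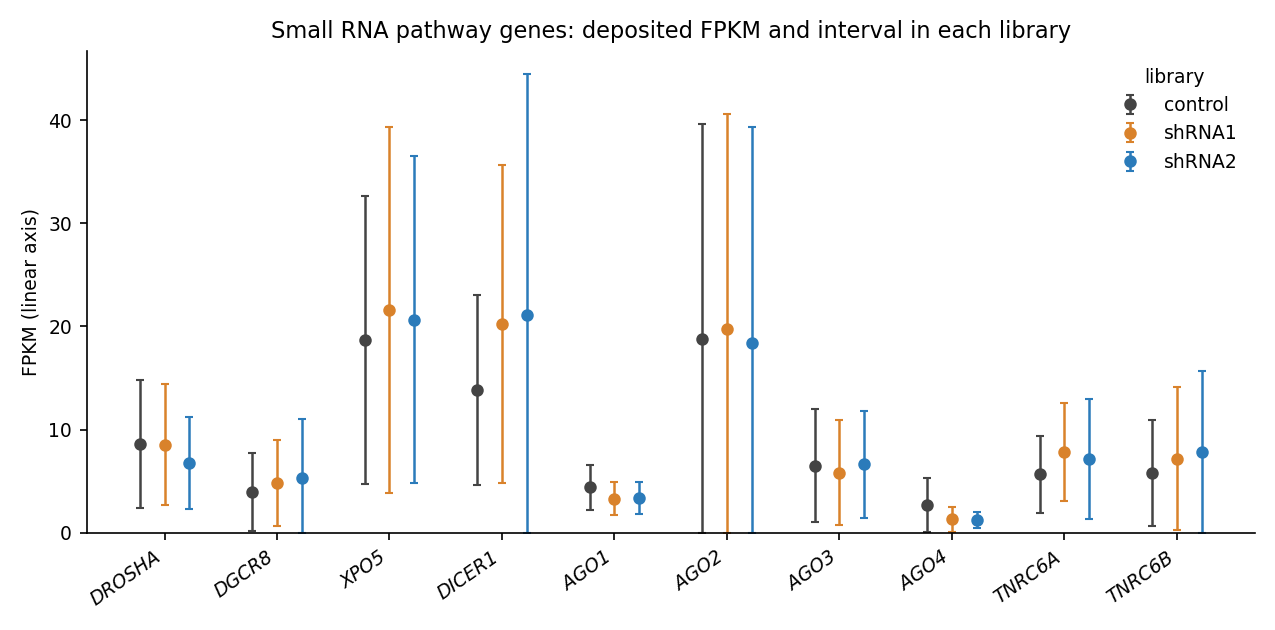
Deposited FPKM (points, linear axis from 0) with the authors' lower and upper bounds (bars) for the 10 genes in the control, shRNA1 and shRNA2 libraries. DICER1 is at 13.8 FPKM in the control and above 20 in both hairpin libraries, AGO4 is at 2.72 against 1.32 and 1.22, and the bars of all genes overlap between libraries.

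No gene of the 10 passed the test of knockdown against control over all tested genes. That test was limma on log2(FPKM + 0.5) with Benjamini-Hochberg adjustment at a threshold of 0.05, and it has 1 residual degree of freedom. It called 0 of the 10 in either direction, against 0.0839% of all tested genes called higher and 0.267% called lower. At an unadjusted limma p under 0.05 there were 3 of the 10 (DICER1, AGO4 and TNRC6A), which is 30%, against 29.7% of all tested genes. With protein-coding genes tested alone, limma called DICER1 higher and AGO4 lower, where 7.11% of the 11546 genes were called higher and 11.3% lower. These 2 of 10 are close to the share of protein-coding genes called in that fit. In bulk RNA, fewer cells that carry a message and less of it per cell cannot be told apart.

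The 10 genes did not move as a block. With both hairpins, 5 were above the control (DICER1, TNRC6A, TNRC6B, DGCR8 and XPO5), 3 were below it (AGO4, AGO1 and DROSHA), and AGO2 and AGO3 went opposite ways with the 2 hairpins. Over all tested genes, 42.4% were higher and 42.6% lower with both. The median log2 change of the 10 was 0.10, with 0.14 for shRNA1 and 0.08 for shRNA2, beside 0.0005 for all tested genes. Only AGO4 was at least 1.5-fold lower in FPKM with both hairpins, and none was at least 1.5-fold higher with both, against 7.21% and 5.9% of all tested genes. In none of the 10 were the deposited intervals of both hairpin libraries clear of the control interval, a condition met upward by 0.0839% and downward by 0.221% of all tested genes. The upper half-width of these intervals had a median of 79.2% of the FPKM in the control, 84.3% under shRNA1 and 79.2% under shRNA2.

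**Figure D2:**
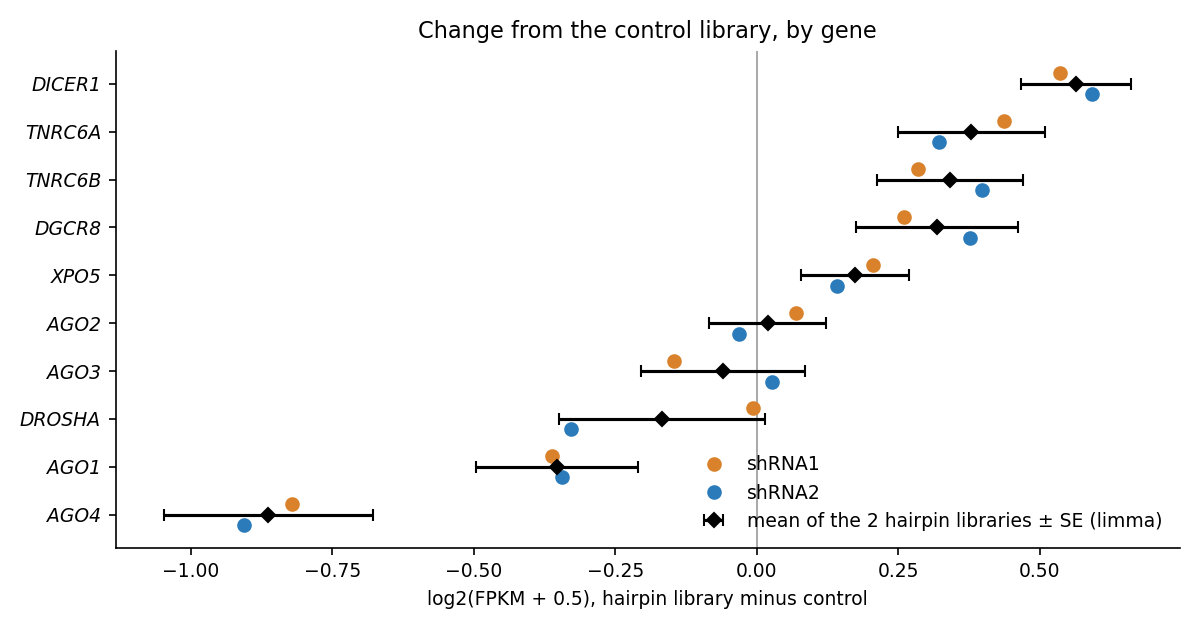
Change from the control on log2(FPKM + 0.5) for each gene: circles are the single hairpin libraries, diamonds their mean with the limma standard error. DICER1 lies furthest to the right (0.56) and AGO4 furthest to the left (-0.86), and the circles of AGO2 and AGO3 fall on opposite sides of 0.

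DROSHA, the nuclease that makes the first cut (chr5:31400497-31532196 on GRCh38, minus strand), stood at 8.60 FPKM in the control, 8.55 under shRNA1 and 6.75 under shRNA2. The control and shRNA1 values were nearly the same, and only the shRNA2 library was lower. The hairpin libraries differed from each other by 1.27-fold, the widest gap between them among the 10 genes. Its log2 change was -0.17 (SE 0.18), with a limma adjusted p of 0.565 that ranged from 0.427 to 0.689 over the alternatives.

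DGCR8, which holds the hairpin for DROSHA (chr22:20080232-20111877, plus strand), stood at 3.94 FPKM in the control, 4.82 under shRNA1 and 5.27 under shRNA2. Both hairpin libraries were above the control, by 1.22-fold and 1.34-fold, and the deposited intervals overlapped. DGCR8 had a log2 difference of 0.32 (SE 0.14), with a limma adjusted p of 0.229 (0.198 to 0.430 over the alternatives). The ratio of DROSHA to DGCR8 in FPKM was 2.18 in the control, 1.77 under shRNA1 and 1.28 under shRNA2. Antisense transcript AC006547.2 shares 7.19% of the exonic bases of DGCR8, at 0.248 FPKM or less in each library, and whether reads were counted by strand is not given in the sources used here.

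The DGCR8 message itself contains microRNA hairpins, which the Microprocessor is known to cut, a feedback on DGCR8. Their RefSeq coordinates were set against the exons of GENCODE release 29. This placed miR-3618 in an untranslated exon of DGCR8 and both arms of miR-1306 in coding sequence. It placed the 2 arms of miR-3173 in an intron of DICER1. These 5 mature sequences are shown because they lie inside genes that encode their own processing machinery. They are written 5′ to 3′ from RefSeq on GRCh38.p14, with the seed (bases 2 to 8) in capitals, and no seed is shared among them.
hsa-miR-3618 (chr22:20085797-20085818, plus strand): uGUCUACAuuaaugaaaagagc
hsa-miR-1306-5p (chr22:20086072-20086093, plus strand): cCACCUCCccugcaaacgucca
hsa-miR-1306-3p (chr22:20086112-20086129, plus strand): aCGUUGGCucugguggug
hsa-miR-3173-5p (chr14:95137961-95137982, minus strand): uGCCCUGCcuguuuucuccuuu
hsa-miR-3173-3p (chr14:95137923-95137944, minus strand): aAAGGAGGaaauaggcaggcca
The mature forms were not measured. The precursor gene MIR3173 was listed at 0 in all 3 libraries. Of 1556 precursor genes listed, 0 were above 0 in the control and 1 was in each hairpin library, so these libraries carry no usable level of precursors.

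XPO5, the exporter of hairpin precursors (chr6:43522330-43576075, minus strand), stood at 18.7 FPKM in the control, 21.6 under shRNA1 and 20.7 under shRNA2. Both hairpin libraries were slightly above the control, by 1.16-fold and 1.11-fold. XPO5 had a log2 change of 0.17 (SE 0.10), and the limma adjusted p was 0.298 (0.289 to 0.676 over the alternatives). POLR1C, an RNA polymerase subunit gene on the other strand, shares 4.08% of the exonic bases of XPO5 and was at 18.7, 24.7 and 23.9 FPKM.

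DICER1, the nuclease of the second cut, was the gene most above the control. It lies at chr14:95086228-95158010 on the minus strand and stood at 13.8 FPKM in the control (deposited interval 4.60 to 23.0), 20.3 under shRNA1 (4.81 to 35.7) and 21.1 under shRNA2 (0 to 44.5). The hairpin libraries were close to each other, 20.7 ± 0.594 FPKM (SD, n = 2), and both lay above the control, by 1.47-fold and 1.53-fold. Its log2 change was 0.56 (SE 0.10), at or above which lay 6.90% of all tested genes. Limma gave an adjusted p of 0.0863 over all genes, 0.0178 with protein-coding genes tested alone and 0.0449 with the robust option, and up to 0.227 over the alternatives. The antisense gene DICER1-AS1 shares 0.65% of the exonic bases of DICER1 and was at 0.873, 1.39 and 1.88 FPKM.

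The partners of DICER1 did not show such a gap. TARBP2, the double-stranded RNA-binding protein that helps DICER1 load Argonaute, stood at 21.8, 19.1 and 19.8 FPKM (control, shRNA1, shRNA2), with a limma adjusted p of 0.319. PRKRA, a second such partner, stood at 27.4, 30.6 and 28.8 FPKM, with a limma adjusted p of 0.469. The ratio of DICER1 to TARBP2 in FPKM was thus 0.634 in the control, 1.06 under shRNA1 and 1.07 under shRNA2. The ratio of DICER1 to AGO2 was 0.734, 1.02 and 1.15 in the same order. The difference between the changes of these genes was not tested.

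The 4 Argonaute genes differed in how they stood against the control. AGO1, AGO3 and AGO4 form a cluster on chromosome 1 on the plus strand, in the order AGO4 (chr1:35808172-35857890), AGO1 (chr1:35869808-35930528) and AGO3 (chr1:35930718-36072500). AGO4 and AGO1 are 11917 bases apart and AGO1 and AGO3 only 189 bases, by GENCODE release 29. AGO4, which has no slicing activity, stood at 2.72 FPKM in the control (deposited interval 0.128 to 5.31), 1.32 under shRNA1 (0.0994 to 2.54) and 1.22 under shRNA2 (0.429 to 2.01). Both hairpin libraries lay below the control, by 2.06-fold and 2.23-fold, and close to each other at 1.27 ± 0.0734 FPKM (SD, n = 2). AGO4 had a log2 change of -0.86 (SE 0.18), at or below which lay 3.42% of all tested genes. Limma gave an adjusted p of 0.0971 over all genes and 0.0293 with protein-coding genes tested alone, with a highest value of 0.233 over the alternatives.

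AGO1, the next gene in the cluster, stood at 4.40 FPKM in the control, 3.31 under shRNA1 and 3.36 under shRNA2. Both hairpin libraries lay below the control by 1.33-fold and 1.31-fold and differed from each other by 1.01-fold, the narrowest such gap of the 10 genes. Its log2 change was -0.35 (SE 0.14), with a limma adjusted p of 0.201 (0.156 to 0.270 over the alternatives). AGO3, only a short distance beyond AGO1, stood at 6.52 FPKM in the control, 5.84 under shRNA1 and 6.66 under shRNA2. The hairpin libraries lay on either side of the control, and the log2 change was -0.06 (SE 0.14), with a limma adjusted p of 0.798 (0.686 to 0.808 over the alternatives). The ratio of AGO3 to AGO4 in FPKM was 2.40 in the control, 4.42 under shRNA1 and 5.47 under shRNA2, a description with no test of the difference.

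The starts of these 3 neighbours and of DICER1 are shown because the levels of AGO4, AGO1 and AGO3 stood in different ways to the control although the genes adjoin, and because DICER1 was furthest above it. Each window runs from 250 bases before to 50 bases after a RefSeq start on GRCh38.p14, written 5′ to 3′ on the gene's strand. Capitals mark GC boxes (GGGCGG) and CCAAT boxes (CCAAT) on both strands. DICER1 has several listed starts, and the 1 with the highest GC content is shown. The windows of AGO1, AGO3 and DICER1 lie inside the GENCODE loci given above, and that of AGO4 lies wholly before its locus. None of the 4 thus holds the outermost GENCODE start of its gene.
AGO4 (chr1:35807766-35808065, plus strand): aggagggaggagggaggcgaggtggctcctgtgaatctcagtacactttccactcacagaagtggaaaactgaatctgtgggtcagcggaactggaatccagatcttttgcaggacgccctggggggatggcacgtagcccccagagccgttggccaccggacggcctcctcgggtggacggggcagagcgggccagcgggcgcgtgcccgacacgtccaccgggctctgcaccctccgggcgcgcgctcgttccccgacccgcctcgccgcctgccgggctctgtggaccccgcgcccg
AGO1 (chr1:35882959-35883258, plus strand): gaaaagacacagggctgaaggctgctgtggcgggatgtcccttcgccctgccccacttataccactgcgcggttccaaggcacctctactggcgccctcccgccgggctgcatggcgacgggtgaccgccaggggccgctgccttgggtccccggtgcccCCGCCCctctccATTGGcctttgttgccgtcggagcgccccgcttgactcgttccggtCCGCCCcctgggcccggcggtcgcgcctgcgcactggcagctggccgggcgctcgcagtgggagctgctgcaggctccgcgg
AGO3 (chr1:35930855-35931154, plus strand): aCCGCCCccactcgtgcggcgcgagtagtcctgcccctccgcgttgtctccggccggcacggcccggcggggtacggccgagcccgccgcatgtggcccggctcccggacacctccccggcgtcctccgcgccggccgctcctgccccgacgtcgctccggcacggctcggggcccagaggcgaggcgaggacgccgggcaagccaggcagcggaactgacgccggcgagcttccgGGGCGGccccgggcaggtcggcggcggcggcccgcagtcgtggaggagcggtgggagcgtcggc
DICER1 (chr14:95157480-95157779, minus strand): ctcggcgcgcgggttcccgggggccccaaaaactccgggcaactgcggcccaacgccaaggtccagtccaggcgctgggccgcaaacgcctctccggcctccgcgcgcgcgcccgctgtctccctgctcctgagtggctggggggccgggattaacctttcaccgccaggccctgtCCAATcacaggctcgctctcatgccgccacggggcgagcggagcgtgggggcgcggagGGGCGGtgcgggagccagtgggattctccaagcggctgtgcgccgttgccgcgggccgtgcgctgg
The AGO1 window held 2 GC boxes and 1 CCAAT box, the AGO3 window 2 GC boxes, and the DICER1 window 1 of each, while neither word was found in the AGO4 window. A GC box was present in 45.0% and a CCAAT box in 34.6% of 35116 RefSeq windows of this length. An E2F word (TTTCCCGC, TTTGGCGC, TTTCGCGC or TTTGCCGC, both strands) was present in 3.31% of them and in none of the 4 shown. GC content was 69.0% for AGO4, 72.3% for AGO1, 80.0% for AGO3 and 73.7% for DICER1, beside a median of 58.7%. The DICER1 value follows from the choice of its window. Its other listed starts were at 49.7%, 52.3%, 39.3% and 34.0%, all below that median. A match is only a match of letters, and these data hold no measurement of binding.

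AGO2, the human Argonaute that slices well-matched targets, had the highest level of the 4. It stood at 18.8 FPKM in the control, 19.8 under shRNA1 and 18.4 under shRNA2, with lower bounds of 0 and upper bounds of 39.7, 40.6 and 39.3 FPKM. The hairpin libraries lay on either side of the control, with a log2 change of 0.02 (SE 0.10) and a limma adjusted p of 0.912 (0.825 to 0.921 over the alternatives). Equalising the total FPKM turned that change to -0.06. AGO2 held 58.0% of the summed Argonaute FPKM in the control, 65.4% under shRNA1 and 62.1% under shRNA2. AGO4 held 8.37%, 4.37% and 4.11% in the same order. The sum of the 4 genes was 32.5 FPKM in the control, 30.3 under shRNA1 and 29.6 under shRNA2, so the stacked bars of the Argonaute family are nearly level while the AGO4 segment is thinner in both hairpin libraries.

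**Figure D3:**
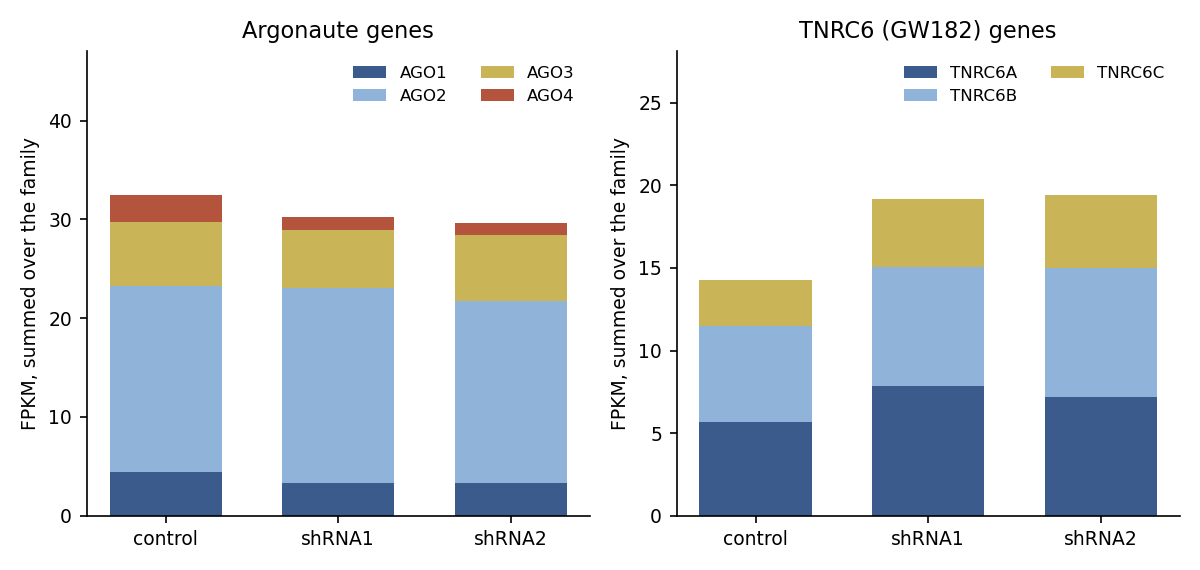
FPKM summed over the 4 Argonaute genes (left) and the 3 TNRC6 genes (right) in each library, with 1 coloured segment per gene and no error bars. The Argonaute sum goes from 32.5 in the control to 30.3 and 29.6, and the TNRC6 sum from 14.3 to 19.2 and 19.4.

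The TNRC6 genes, whose products carry the silencing signal from Argonaute to the deadenylases, were higher with both hairpins in all 3 paralogs, both as deposited and after equalising the total FPKM of the libraries. TNRC6A (chr16:24610209-24827632, plus strand) stood at 5.66 FPKM in the control, 7.83 under shRNA1 and 7.19 under shRNA2. Its log2 change was 0.38 (SE 0.13), with a limma adjusted p of 0.162 (0.110 to 0.274 over the alternatives). TNRC6B (chr22:40044817-40335808, plus strand) stood at 5.82, 7.20 and 7.83 FPKM. Its log2 change was 0.34 (SE 0.13), with a limma adjusted p of 0.183 (0.140 to 0.369). Both genes averaged 7.51 FPKM over the hairpin libraries, with SDs of 0.453 and 0.446 (n = 2). TNRC6C, the third paralog and not one of the 10, stood at 2.81, 4.17 and 4.39 FPKM, with a log2 change of 0.53 (SE 0.15) and a limma adjusted p of 0.122. The deposited intervals of TNRC6C start at 0 in each library. The 3 genes summed to 14.3 in the control, 19.2 under shRNA1 and 19.4 under shRNA2, while the share of each paralog stayed between 37.1% and 40.8% for TNRC6A, 37.5% and 40.7% for TNRC6B, and 19.6% and 22.6% for TNRC6C. None passed limma over all genes.

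A list of 89 further genes of the pathway gave the setting, of which 78 reached a mean of 1 FPKM. None was called by limma over all genes, 21 had an unadjusted p under 0.05 (26.9%, beside 29.7% of all tested genes), and with protein-coding genes tested alone 7 were called higher and 9 lower, in a fit that called 7.11% and 11.3% of its genes. The list median was 0.04 on the log2 scale. Of the list, 35 genes (44.9%) were higher and 26 (33.3%) lower with both hairpins, beside 42.4% and 42.6% of all tested genes. With both hairpins, 3 were at least 1.5-fold above the control and 4 at least 1.5-fold below it, beside 5.9% and 7.21% of all tested genes. None of these counts sets the list apart from other genes. In the plot by functional group, 4 of the 6 groups have medians between -0.01 and 0.05, the PIWI branch has a single gene, and the median of the double-stranded RNA sensors is -0.30. With the total FPKM equalised, these 4 medians ran from -0.09 to -0.02 and that of the sensors was -0.37.

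**Figure D4:**
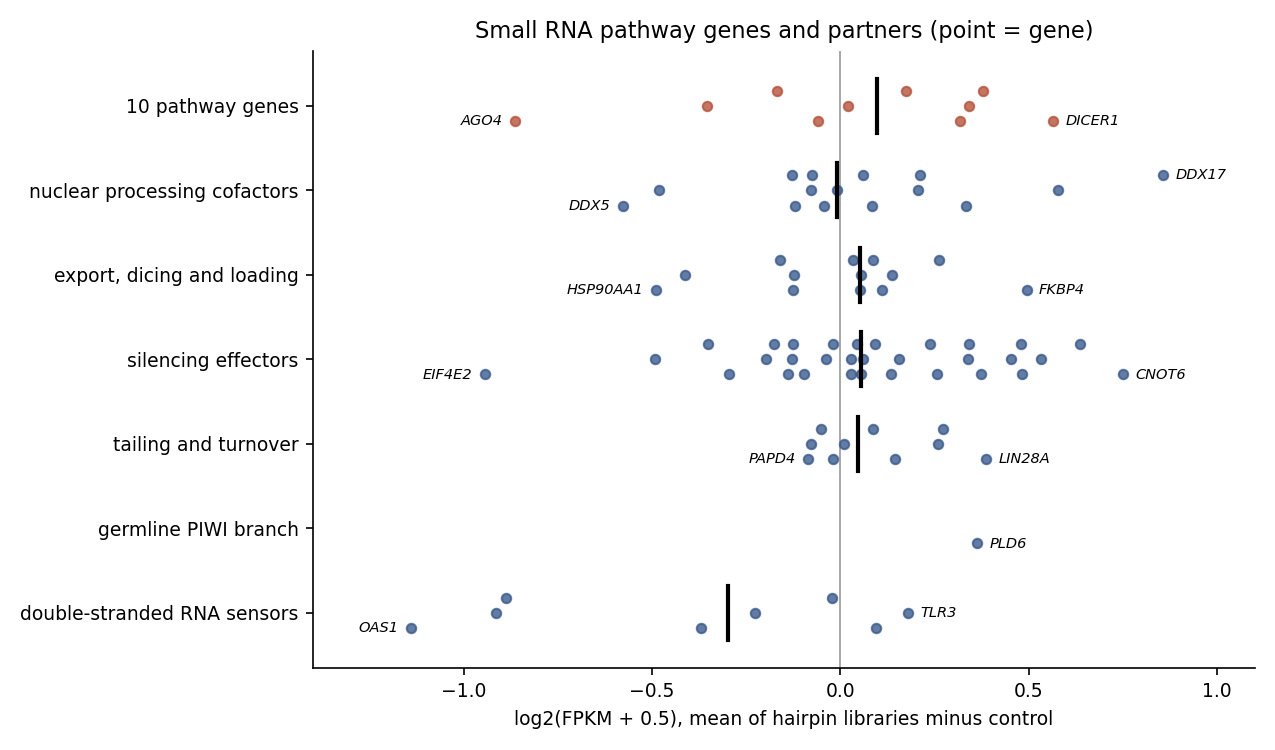
Log2 change of each tested gene (mean of both hairpin libraries minus control, on log2(FPKM + 0.5)) for the 10 pathway genes and 6 groups of partner genes. Black bars are medians of groups with more than 1 gene. The outermost genes of each group are named, with DDX17 at 0.86 and OAS1 at -1.14.

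The nuclear cofactors of DROSHA held a pair of paralogs that stood on opposite sides of the control. DDX5 and DDX17 are DEAD-box RNA helicases that join the Microprocessor. DDX5 stood at 222 FPKM in the control, 144 under shRNA1 and 153 under shRNA2, a log2 change of -0.58 (SE 0.09). DDX17 stood at 49.7, 92.8 and 88.1 FPKM, a log2 change of 0.86 (SE 0.08). Their limma adjusted p was 0.0833 and 0.0813 over all genes, and 0.00969 and 0.00442 with protein-coding genes alone, where both were called. KHSRP, an RNA-binding protein that promotes processing of some precursors, stood at 39.1, 61.4 and 56.0 FPKM. SAFB2, a cofactor that helps weak hairpins in clustered transcripts, stood at 17.3, 12.4 and 12.2 FPKM. Both were also called by limma with protein-coding genes alone (adjusted p of 0.0129 and 0.0321), and neither over all genes (0.0859 and 0.0949). The protein-coding fit called 7.11% of its genes higher and 11.3% lower. Of the 15 nuclear cofactors 6 (40.0%) were higher and 7 (46.7%) lower with both hairpins, beside 42.4% and 42.6% of all tested genes.

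Among 13 genes of export, dicing and loading, 7 (53.8%) were higher and 5 (38.5%) lower with both hairpins, beside 42.4% and 42.6% of all tested genes. HSP90AA1, a chaperone that holds Argonaute open for loading, stood at 539, 374 and 393 FPKM (control, shRNA1, shRNA2). FKBP4, its co-chaperone, stood at 141, 210 and 189 FPKM. XPO1, the general export receptor, stood at 83.4, 57.7 and 67.7 FPKM, and IPO8, an importin reported to bind Argonaute, at 12.9, 16.0 and 15.1. With protein-coding genes alone limma called FKBP4 higher and HSP90AA1 and XPO1 lower (adjusted p of 0.0193, 0.0164 and 0.0485), while IPO8 had 0.161. Of all genes in that fit, 7.11% were called higher and 11.3% lower.

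Of 31 silencing effectors 16 (51.6%) were higher and 8 (25.8%) lower with both hairpins, beside 42.4% and 42.6% of all tested genes. The group was not tested. CNOT6, a deadenylase subunit of CCR4-NOT, stood at 10.8, 20.2 and 17.0 FPKM, and MOV10, an RNA helicase found with Argonaute, at 8.39, 14.1 and 12.6. EIF4E2, a cap-binding translational repressor, stood at 40.3, 17.4 and 24.6 FPKM, the lowest change of the group at -0.94 on the log2 scale. Limma with protein-coding genes alone called CNOT6, MOV10, AJUBA and CNOT2 higher and EIF4E2 and DCP2 lower, where 7.11% and 11.3% of all genes in that fit were called. Of these 6, AJUBA, CNOT2 and DCP2 fall outside the naming rule and were picked once their values were known. DCP2, the decapping enzyme, was at 43.4, 28.5 and 33.1 FPKM, CNOT2, a CCR4-NOT scaffold subunit, at 37.3, 54.4 and 50.4, and AJUBA, a LIM protein, at 15.1, 21.5 and 21.1.

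Genes of tailing and turnover showed no call in either limma fit. Of all genes in the protein-coding fit, 7.11% were called higher and 11.3% lower. Among the 10 tested, 4 were higher and 1 lower with both hairpins, beside 42.4% and 42.6% of all tested genes. The group was not tested, so nothing is drawn from these counts. LIN28A, which blocks let-7 maturation, was present at 17.1 FPKM in the control, 25.6 under shRNA1 and 19.7 under shRNA2, whereas LIN28B was at 0.076 FPKM or less. The exonuclease XRN2 stood at 49.4, 60.2 and 58.3 FPKM, the uridylyl transferase ZCCHC6 (TUT7) at 4.16, 5.51 and 4.77, and ZSWIM8, of the ligase that degrades Argonaute bound to certain targets, at 21.3, 21.5 and 25.9. After equalising the total FPKM, ZSWIM8 was lower with shRNA1. Of the germline PIWI branch only PLD6, a mitochondrial phospholipase, reached the filter (3.19, 4.47 and 4.03 FPKM). The PIWI genes themselves were at 0.128 FPKM or less in each library.

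Of 8 sensors of double-stranded RNA, which can respond to hairpins, 5 were lower and 1 higher with both hairpins, where 42.6% of all tested genes were lower and 42.4% higher. No sensor was called by limma over all genes, and 3 had an unadjusted limma p under 0.05 (37.5%, beside 29.7% of all tested genes). The group was not tested. OAS1, OAS2 and OAS3 make the second messenger that activates RNase L and stood at 12.0, 4.22 and 6.32 FPKM, at 7.10, 2.90 and 4.29, and at 12.9, 5.76 and 7.86. All 3 were called lower by limma with protein-coding genes alone (adjusted p of 0.0162, 0.0317 and 0.0215) and not over all genes (0.102, 0.124 and 0.108). The protein-coding fit called 11.3% of its genes lower. The deposited intervals of OAS1 and OAS2 start at 0 in each library. OAS1, OAS2 and OAS3 are listed at the same locus, so they may not be separate observations. The sensor IFIH1 stood at 9.35, 6.47 and 7.82 FPKM.

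Host genes of microRNAs are the transcripts from which Microprocessor cuts. Of 50 listed genes whose symbols start with MIR and end with HG, 10 reached the filter. With both hairpins 7 of these were higher and 3 lower, but 2 of the 7, MIR193BHG and MIRLET7BHG, were under 1 FPKM in the control and reached the filter through the hairpin libraries, so this count supports no direction. None was called by limma over all genes, and 3 had an unadjusted limma p under 0.05 (30%, beside 29.7% of all tested genes). These 3 include MIR193BHG, which the hairpin libraries carried past the filter, so nothing is drawn from that share. MIR193BHG, host of miR-193b and miR-365a, stood at 0.708 FPKM in the control (deposited interval 0 to 1.49), 3.50 under shRNA1 (0.286 to 6.71) and 4.41 under shRNA2 (0.567 to 8.26). It was 4.94-fold and 6.23-fold above the control, and these values are a description with no test, since only the hairpin libraries carried it past the filter. MIR99AHG, host of miR-99a, let-7c and miR-125b-2, stood at 1.87, 5.10 and 3.47 FPKM, with a log2 change of 0.99 (SE 0.26) and a limma adjusted p of 0.117. Only these 2 hosts were at least 1.5-fold above the control with both hairpins, and none was as far below it. Over all tested genes the shares were 5.9% above and 7.21% below. The filter favoured MIR193BHG through its hairpin libraries, so this count supports no direction either.

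**Figure D5:**
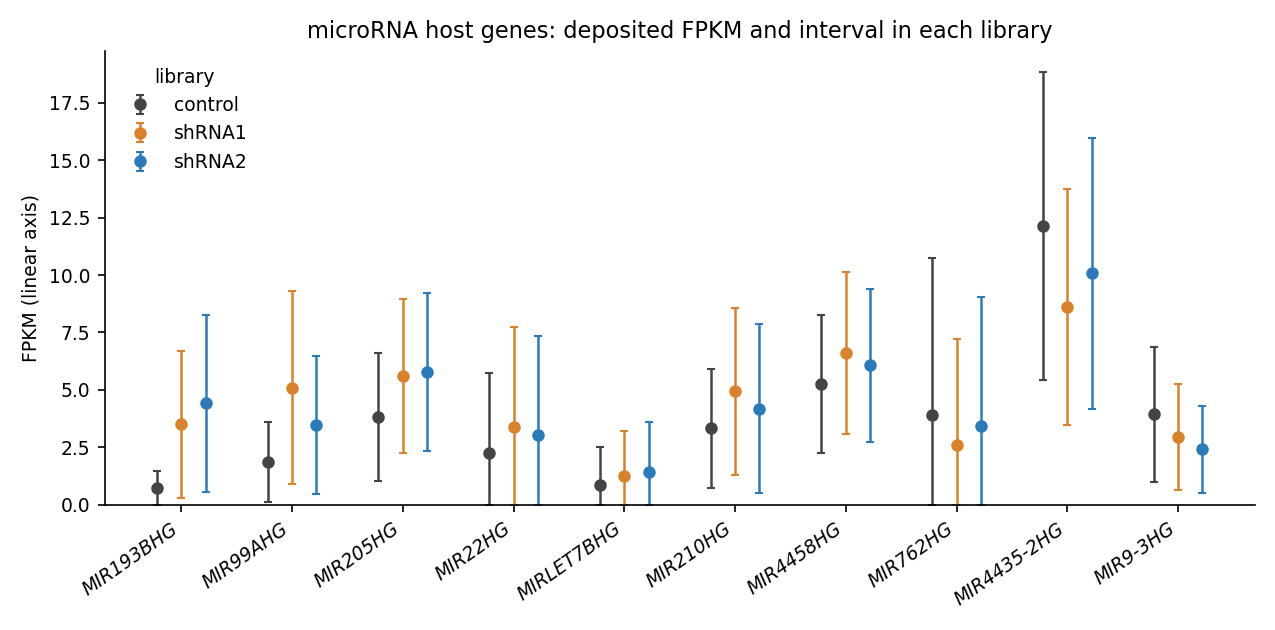
Deposited FPKM (points, linear axis from 0) with the authors' bounds (bars) for the 10 microRNA host genes that reached the filter, ordered by change. MIR193BHG is at 0.708 FPKM in the control against 3.50 and 4.41, and its bars overlap between libraries.

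The microRNAs of the 2 hosts furthest above the control are shown with the let-7 forms of MIRLET7BHG, since they fall into seed groups. MIRLET7BHG stood at 0.874, 1.23 and 1.43 FPKM (control, shRNA1, shRNA2). The sequences are from RefSeq on GRCh38.p14, 5′ to 3′, with the seed (bases 2 to 8) in capitals. The 3 let-7 forms share the seed GAGGUAG across both host genes, and the others each have their own.
hsa-miR-193b-3p (chr16:14304017-14304038, plus strand): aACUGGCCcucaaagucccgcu
hsa-miR-365a-3p (chr16:14309340-14309361, plus strand): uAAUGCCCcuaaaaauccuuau
hsa-miR-99a-5p (chr21:16539101-16539122, plus strand): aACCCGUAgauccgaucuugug
hsa-miR-125b-5p (chr21:16590253-16590274, plus strand): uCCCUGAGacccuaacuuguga
hsa-let-7c-5p (chr21:16539838-16539859, plus strand): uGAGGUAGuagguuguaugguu
hsa-let-7a-5p (chr22:46112752-46112773, plus strand): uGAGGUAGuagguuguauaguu
hsa-let-7b-5p (chr22:46113691-46113712, plus strand): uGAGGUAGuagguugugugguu
The host transcripts were measured and the mature microRNAs were not. The microRNAs of MIR193BHG and MIR99AHG lie in introns of their hosts. MIR205HG stood at 3.82, 5.60 and 5.80 FPKM, MIR22HG at 2.25, 3.39 and 3.02, and MIR9-3HG at 3.93, 2.97 and 2.42, the last lower with both hairpins. Limma adjusted p was 0.112, 0.191 and 0.190 for these 3 hosts.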

How the data were processed

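RNA from 3 T47D libraries was analysed. The authors deposited FPKM per gene and library with a lower and an upper bound, per the file headers; STAR, RSEM and GRCh38 stand in the submitters' processing notes with no role or version. The sources used here do not give the confidence level, the annotation release or a scaling across libraries. Changes were computed on log2(FPKM + 0.5) for genes with a mean of at least 1 FPKM, a scale that understates changes of low genes; folds are ratios of FPKM. The test was limma 3.58.1 (eBayes with trend) in R 4.3.3 with Benjamini-Hochberg adjustment. A run on simulated data gave every gene and library the same spread. That run checked the code only and cannot show how well the test suits these data. The spread in the test comes from the difference between the hairpin libraries, moderated by eBayes toward a trend over all genes in the fit. Each SE and p is thus a moderated value, and the control is assumed to vary as the hairpin libraries do. Depth was estimated from genes of at least 1000 bases with 1 transcript whose bounds imply a single fragment, within 5%. That estimate assumes a confidence level for the bounds and bounds set by counting error alone, neither of which the sources give. Gene types and loci came from GENCODE release 29, sequences from RefSeq; protein sequences were not used here. Partner genes were named by rule: TNRC6C, TARBP2, PRKRA, and up to 4 per group (6 hosts) with the largest change in the same direction with both hairpins. The members and lists were chosen with earlier results of these data known. Tables used pandas 2.3.3 and plots matplotlib 3.10.9 (Python 3.11.15). The summed level of the immune marker list is not reported here.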

Additional observations from a re-analysis of the deposited data

How the results depend on the processing

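Of 97 recomputed changes of the 10 genes, 91 kept their direction and their side of the limma threshold. AGO2 (0.0192) turned to -0.0564 with the total FPKM equalised and to -0.0311 without the shRNA1 library, against 0.0695 without shRNA2, and AGO3 (-0.0601) to 0.0272 without shRNA1, against -0.1474 without shRNA2. With equal totals, the median of all tested genes stood at -0.1151 with shRNA1 and -0.0288 with shRNA2 in place of -0.0006 and 0. DICER1 passed with the robust option, and DICER1 and AGO4 passed with protein-coding genes tested alone, so the members called were 1 higher in both of these fits and 1 lower in the second. Genes called over all tested genes were 11 higher and 35 lower; they were 0 and 0 with no filter, where 5039 genes had an unadjusted p under 0.05, 65 and 111 with equal totals, 430 and 595 with the robust option, and 821 and 1299 with protein-coding genes alone, and 6 higher without the trend. Wider pathway genes called were 3 higher and 2 lower with the robust option and 7 and 9 with protein-coding genes alone. The median change of the 10 genes, 0.10, became 0.17 at a mean of at least 5 FPKM, where 7 of the 10 were tested, and 0.0206 with equal totals; it ran from 0.0843 without shRNA1 to 0.1372 without shRNA2. Intervals clear of the control upward numbered 11, and 6 at a mean of at least 5 FPKM and 17 with no filter. The cause of these shifts was not tested. No paired analysis was possible because the control is a single library and the groups share fewer than 2 replicate numbers. The width of the deposited intervals, the single control and the single residual degree of freedom limit what these data resolve.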
